A study of Mus musculus with 34 samples.

Results

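Whole corneas of wildtype CB6 mice were compared between embryonic day 17.5 (E17.5, 3 arrays) and embryonic day 15.5 (E15.5, 3 arrays), which made up 6 of the 34 arrays of a series that follows the mouse cornea through development, adulthood and ageing. The 6 arrays were taken by their labelled age, and 12998 named genes were compared. The other arrays hold 10 further ages of whole cornea, 1 array of isolated epithelium and 1 of isolated stroma. Both ages share the strain, the wildtype genotype and the absence of any treatment, and per the labels' protocols the corneas were dissected from whole globes and freed of surrounding tissue before RNA was extracted and amplified. Nothing in the labels tells if the 3 arrays of an age hold separate embryos or pools, and each p-value therefore reflects array-to-array spread that may be technical.

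The cornea is the clear front of the eye and consists of a surface epithelium, a collagen-rich stroma made by keratocytes, and an inner endothelium. The keratocytes and the endothelium descend from mesenchyme that migrates in around the lens, and the epithelium descends from surface ectoderm. In the mouse fetus the eyelids grow over the eye and fuse during the last days before birth, so the later of these 2 ages is a cornea under closed lids.

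The tissue labels were checked against defining genes. Krt12, the keratin that marks corneal epithelium, had intensities of 4559, 6869 and 3784 on the E17.5 arrays, against 5329, 8500 and 8654 on the E15.5 arrays. Kera, which encodes the stromal proteoglycan keratocan, had 6197, 5071 and 6159 on the E17.5 arrays, against 7151, 6788 and 7526 on the E15.5 arrays. Both genes were therefore among the bright ones on every array of both ages. Slc4a11, a transporter of the corneal endothelium, was dim throughout, with 66.8, 91.8 and 64.3 on the E17.5 arrays, against 57.6, 88.6 and 74.1 on the E15.5 arrays, below the array medians of 188 to 241.

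Several of the 6 arrays stood apart from their labelled group. Replicates 1 and 3 of E17.5 were rich in skeletal muscle genes: the intensities of the 41 tested genes of a skeletal muscle list summed to 163321 and 139229, while replicate 2 had 16014. Among the E15.5 arrays, replicate 1 had 46586, against 10599 and 13127 in replicates 2 and 3. Over all 12998 genes, E15.5 replicate 1 correlated more closely with E17.5 replicates 1 and 3 (r of 0.962 and 0.967) than with its own group (0.951 and 0.943), a description across genes that are not independent. Whether that array differs in stage or identity from its label was not tested, and each E15.5 mean includes it. E17.5 replicate 2 correlated with its own group at 0.907 and 0.902, and with E15.5 replicates 1, 2 and 3 at 0.929, 0.914 and 0.903. It also had 45 genes at least 2-fold below the lowest value of the other 31 whole-cornea arrays, such as Smurf2, a ubiquitin ligase, at 340 against 2434 and 3223 on the other 2 E17.5 arrays. Most other arrays had 0 to 13 such genes, and 1 array of E14.5 had 147. On E15.5 replicate 3 the Y-linked Eif2s3y read 3.04, against 1149 and 1273 on replicates 1 and 2, and the X-linked Xist read 6082, against 30.9 and 332. The pair of genes thus separated that array from the other 2 of its age, and on E17.5 arrays Eif2s3y read 1351, 634 and 1193 and Xist 283, 24.9 and 62.8.

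**Figure D1:**
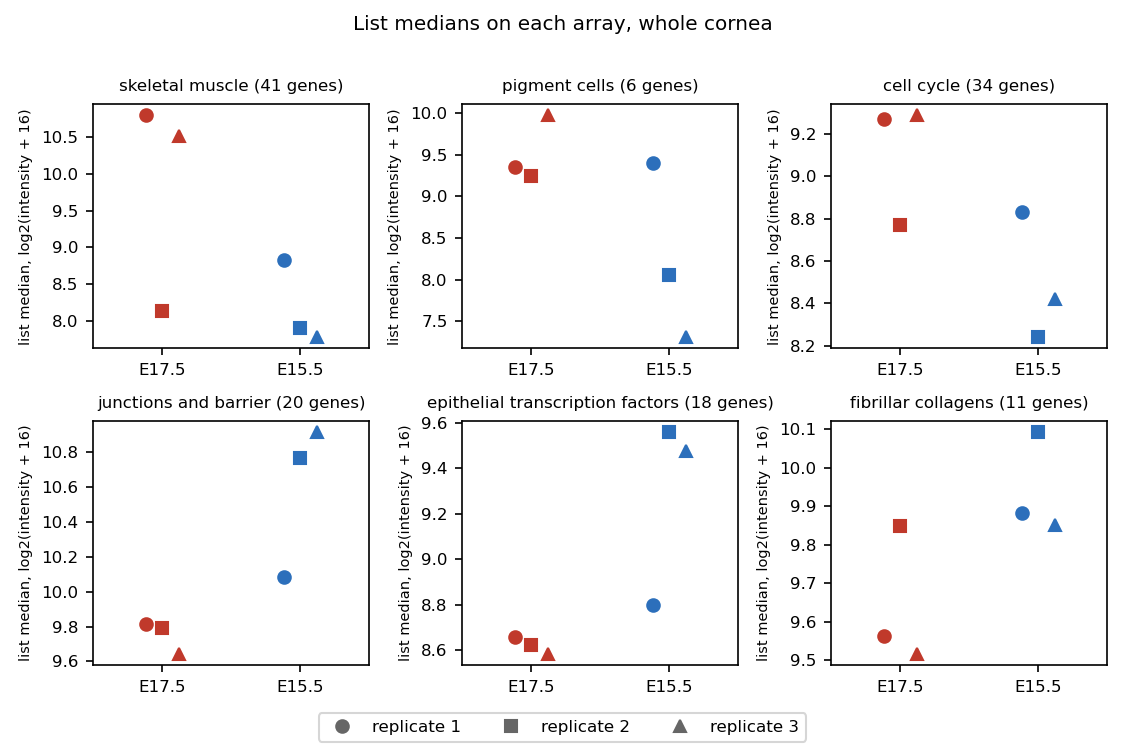
Median of log2(intensity + 16) over the genes of 6 lists (y axis, log2 units) on each of the 3 E17.5 arrays (left, red) and the 3 E15.5 arrays (right, blue), with the marker giving the replicate number. The skeletal muscle list reads 10.80 and 10.51 on E17.5 replicates 1 and 3 and 8.14 on replicate 2, against 8.83, 7.91 and 7.78 on the E15.5 arrays, and the junction list is lower on all 3 E17.5 arrays than on all 3 E15.5 arrays.

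A gene was called when limma gave a Benjamini-Hochberg adjusted p under 0.05 together with a log2 difference of at least 1 between the ages, in a fit that took the spread from all 32 whole-cornea arrays. Between E17.5 and E15.5, 74 of 12998 genes were called (0.569%), 51 higher at E17.5 (0.392%) and 23 lower (0.177%). At an unadjusted p under 0.05 there were 703 genes higher (5.41%) and 1246 lower (9.59%). All 3 E17.5 arrays lay above all 3 E15.5 arrays in 680 genes (5.23%) and below them in 1412 (10.9%). The median log2 difference over all genes was -0.07, and 37.2% of differences were above 0. Among the called genes the 2 groups of arrays did not overlap in 30 of the 51 higher and in 21 of the 23 lower ones. E17.5 replicate 2 was above every E15.5 array in 31 of the 51 higher genes, and not in the other 20.

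The number of calls depended on single arrays. It was 311 without E15.5 replicate 1, 2 without E15.5 replicate 2 and 4 without E15.5 replicate 3. It was 33 without E17.5 replicate 1, 178 without E17.5 replicate 2 and 22 without E17.5 replicate 3. Rcan2 was called in all 6 of these fits, Zfp874a and Akap5 in 5, and 34 of the 51 higher genes in only 2. With E17.5 replicate 2 as the only array of its age, 70 of the 74 genes kept the sign of their difference. The same arrays entered the main fit, so these signs are not independent of it. That replicate has little muscle RNA but also 45 genes far below all other whole-cornea arrays. Fits with it alone, here and below, hold no spread within E17.5. A fit on the 6 arrays alone called 0 genes with limma, with 1304 at an unadjusted p under 0.05.

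**Figure D2:**
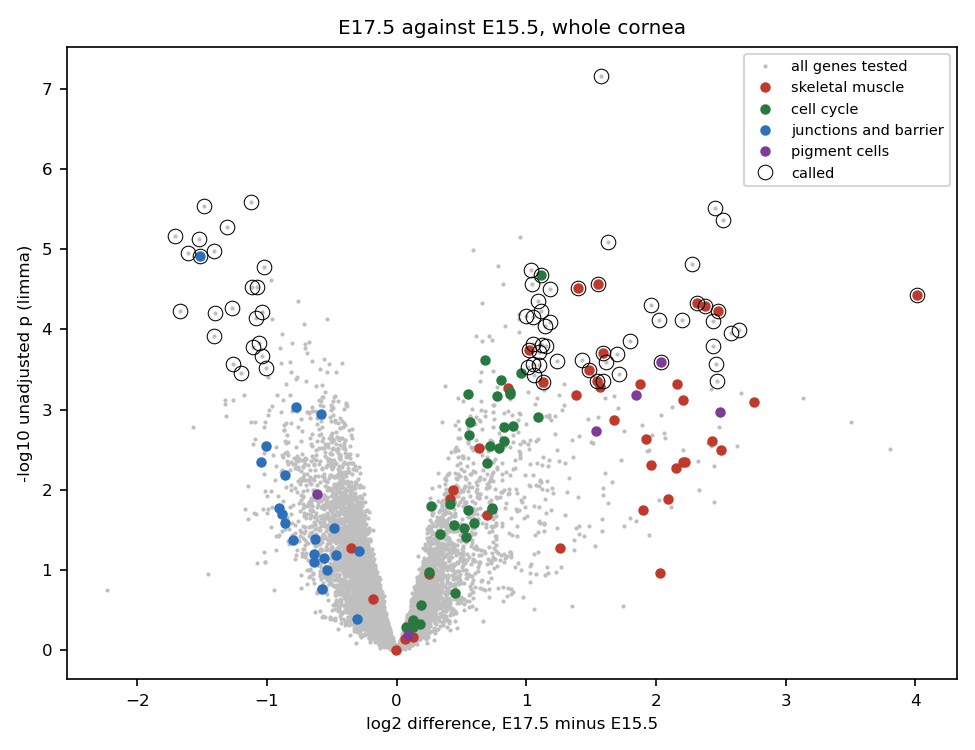
Log2 difference of E17.5 minus E15.5 (x axis) against -log10 of limma's unadjusted p (y axis) for 12998 genes, with 4 gene lists in colour and called genes ringed. Skeletal muscle genes lie on the right, all 34 cell cycle genes lie right of 0 and all 20 junction and barrier genes lie left of 0.

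Genes of skeletal muscle made up the largest group among those higher at E17.5. Of the 41 tested genes of the muscle list, 11 were called higher (26.8%, against 0.392% of all genes) and 0 lower, 32 were higher at an unadjusted p under 0.05, and 38 differences were above 0, with a median of 1.57. The list has 57 genes with a probe set, and the filter on dim genes admits those that are bright on 2 arrays alone, so the 41 are not all its members and the share called is only a description. With no filter 8 were called and the median was 1.02. Skeletal muscle fibres contract when calcium released from the sarcoplasmic reticulum frees actin from troponin. The genes called were Tnnt1, Acta1, Myom1, Csrp3, Myot, Casq1, Atp2a1, Srl, Eno3, Pygm and Musk. They encode parts of the sarcomere, calcium stores and pumps, 2 enzymes of muscle energy metabolism and a receptor kinase of the nerve-muscle junction.

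Tnnt1, the troponin T of slow fibres, had the largest difference of all genes, with 29780, 529 and 28395 on the E17.5 arrays, against 509, 490 and 401 on the E15.5 arrays. The signal was high on replicates 1 and 3 of E17.5 alone, and replicate 2 lay just above the E15.5 arrays. The log2 difference was 4.01 (SE 0.80, adjusted p = 0.017). It was 5.92 without E17.5 replicate 2 and 0.18 with replicate 2 as the only E17.5 array (adjusted p = 0.72). Acta1, skeletal actin, had 3726, 394 and 3755 on the E17.5 arrays, against 594, 242 and 248 on the E15.5 arrays (log2 difference 2.37, adjusted p = 0.02). Myom1, which links thick filaments, had 2528, 159 and 1443 on the E17.5 arrays, against 164, 114 and 143 on the E15.5 arrays (log2 difference 2.48, adjusted p = 0.02). In both genes replicate 2 of E17.5 lay within the range of the E15.5 arrays. The promoter of Tnnt1, the gene with the largest difference, is shown from RefSeq's GRCm38.p6 at chr7:4515926-4516225 on the minus strand, from 250 bases before the transcript start to 50 after, with each CANNTG in capitals, the letters that myogenic factors of the MyoD family bind (searched on both strands, where the motif reads the same).
Tnnt1: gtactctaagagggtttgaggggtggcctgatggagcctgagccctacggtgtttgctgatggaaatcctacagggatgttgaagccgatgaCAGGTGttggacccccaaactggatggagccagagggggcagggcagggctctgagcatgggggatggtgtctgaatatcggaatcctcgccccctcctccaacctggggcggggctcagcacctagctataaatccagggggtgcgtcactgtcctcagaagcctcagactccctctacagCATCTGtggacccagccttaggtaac
A CANNTG was present in the promoters of 26 of the 30 tested muscle genes with an entry (86.7%) and in 72.1% of all 27025 promoters. A match is a description of the letters and not a bound site.

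Some muscle genes were bright on E15.5 replicate 1 as well. In 10 of the 41 genes that array was at least 4-fold above each of the other 2 E15.5 arrays, and 0 of these 10 were called. Tnnc2, the troponin C of fast fibres, was such a gene, with 13140, 290 and 11461 on the E17.5 arrays, against 8671, 328 and 212 on the E15.5 arrays. The 2 groups overlapped, and Tnnc2 was not called (log2 difference 2.03, adjusted p = 0.46). Mylpf, a fast regulatory light chain, had 9295, 599 and 8158 on the E17.5 arrays, against 3092, 186 and 393 on the E15.5 arrays. Actc1, the cardiac actin that fetal skeletal muscle also uses, had 10090, 1264 and 10811 on the E17.5 arrays, against 5360, 264 and 932 on the E15.5 arrays. These genes were thus high on 3 arrays, 1 of them of E15.5. Tnnt1 and Myom1, at 509 and 164, were by contrast at most 1.28-fold brighter on that array than on the mean of the other 2 of its age. Myf6, a myogenic factor of maturing fibres, had 1198, 101 and 848 on the E17.5 arrays, against 164, 139 and 117 on the E15.5 arrays (adjusted p = 0.073). Myod1, which commits cells to muscle, had 169, 181 and 212 on the E17.5 arrays, against 235, 225 and 182 on the E15.5 arrays.

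**Figure D3:**
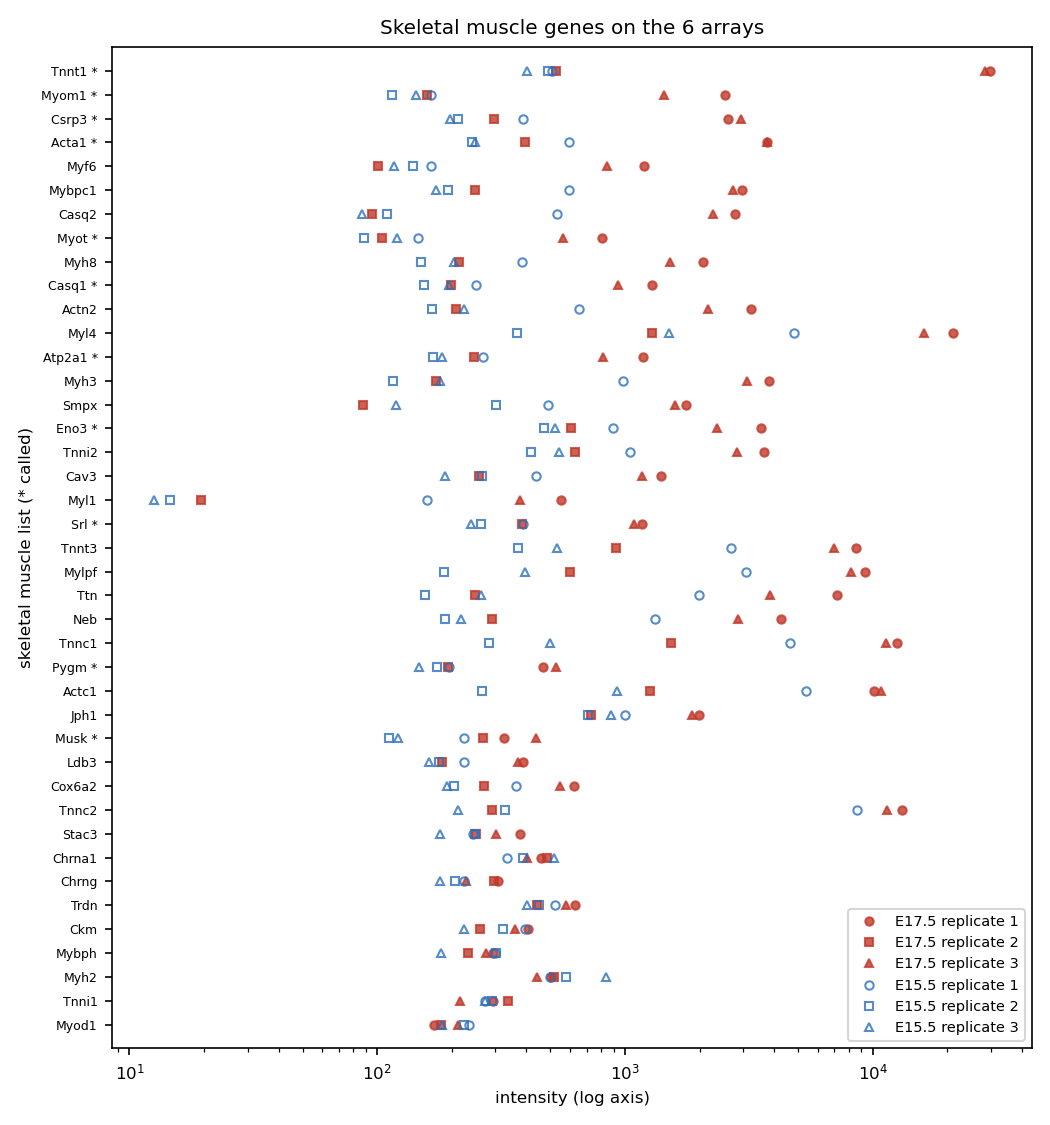
Intensity (x axis, log scale) of the 41 tested skeletal muscle genes (y axis) on the 3 E17.5 arrays (filled red) and the 3 E15.5 arrays (open blue), with called genes starred. E17.5 replicates 1 and 3 lie far right of replicate 2 for most genes, and E15.5 replicate 1 joins them for genes such as Tnnc2 (8671) but not Tnnt1 (509).

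The number of muscle genes called was 28 without E15.5 replicate 1, 30 without E17.5 replicate 2 and 0 in each of the 4 fits that left out another of the 6 arrays. It was also 0 with E17.5 replicate 2 as the only array of its age, where the list's median was -0.04. Whether muscle RNA came with the dissected tissue was not tested, and in bulk RNA a change in the number of cells of a type and a change in RNA per cell cannot be told apart.

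A further set of called genes was high on the same 2 E17.5 arrays. Several belong to muscle metabolism or growth: Cox8b and Fabp3 (a mitochondrial oxidase subunit and a fatty acid carrier), Apobec2, Myl3 and Mstn, which encodes the muscle growth inhibitor myostatin. Mstn had 860, 153 and 314 on the E17.5 arrays, against 162, 68.9 and 61.2 on the E15.5 arrays, and replicate 2 of E17.5 lay within the E15.5 range. Of a fat list, 7 genes had a probe set, 3 passed the filter on dim genes and 2 were called higher (0.392% of all genes were), and with no filter the list's median difference was -0.02. Fabp4, the fatty acid carrier of fat cells and small vessels, had 1472, 152 and 2045 on the E17.5 arrays, against 176, 116 and 112 on the E15.5 arrays (log2 difference 2.44, adjusted p = 0.02). Lpl, the lipase that frees fatty acids from lipoproteins, had 979, 267 and 1096 on the E17.5 arrays, against 212, 224 and 176 on the E15.5 arrays (log2 difference 1.63, adjusted p = 0.01). Replicate 2 of E17.5 was within the E15.5 range for Fabp4 and just above it for Lpl.

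Foxd1, a forkhead factor of the temporal retina and of kidney stroma, showed the same pattern, with 919, 102 and 1098 on the E17.5 arrays, against 93.9, 69.7 and 65.3 on the E15.5 arrays (log2 difference 2.44, SE 0.55, adjusted p = 0.029). At E14.5 it had 1109, 1418 and 6235, of which replicates 2 and 3 are arrays rich in lens or retina genes. At P3 (postnatal day 3) it averaged 83.2. C1qtnf3, a secreted protein of cartilage and fat, had 1227, 139 and 1189 on the E17.5 arrays, against 170, 126 and 114 on the E15.5 arrays. All of these genes lost their call without E17.5 replicate 1 or replicate 3, where Foxd1 had adjusted p = 0.10 and 0.13 and Lpl 0.051 and 0.06. They also lost it without E15.5 replicate 2 or replicate 3, where Foxd1 had 0.16 and 0.18 and Lpl 0.061 and 0.093.

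Igfbp3, Rcan2 and Zfp874a were higher on all 3 E17.5 arrays, and their calls held in more of the fits. Igfbp3, a carrier that binds insulin-like growth factors in extracellular fluid, had 1170, 462 and 1510 on the E17.5 arrays, against 263, 141 and 105 on the E15.5 arrays (log2 difference 2.45, SE 0.41, adjusted p = 0.01). It was the 1 gene called among 17 tested imprinted and fetal growth genes (0.569% of all genes were called), whose median difference was 0.11. Its call was lost without E15.5 replicate 2 (adjusted p = 0.061) or replicate 3 (0.074), and with E17.5 replicate 2 as the only array of its age (log2 difference 1.46, adjusted p = 0.089). Igf1, a ligand that this carrier binds, had 1705, 1965 and 2773 on the E17.5 arrays, against 1887, 412 and 321 on the E15.5 arrays, and was not called (log2 difference 1.71, adjusted p = 0.065). Here E15.5 replicate 1 read like an E17.5 array.

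Rcan2, which encodes a regulator of the phosphatase calcineurin, had 686, 259 and 515 on the E17.5 arrays, against 143, 161 and 121 on the E15.5 arrays. The groups did not overlap, and the log2 difference of 1.58 (SE 0.21) had the smallest adjusted p of all genes (9e-04). It ranged from 1.28 to 1.96 when 1 of the 6 arrays was left out and was 0.81 (adjusted p = 0.0085) with E17.5 replicate 2 as the only array of its age. Zfp874a, a zinc-finger gene, had 258, 201 and 305 on the E17.5 arrays, against 18.8, 10.9 and 93.5 on the E15.5 arrays (log2 difference 2.51, SE 0.43, adjusted p = 0.01). Its mean was 216 at E14.5 and 180 at P3. E15.5 was the low age of these 4, which largely follows from its choice for low E15.5 values. Its call was lost without E15.5 replicate 2 (adjusted p = 0.10).

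Of 34 tested genes of a cell cycle list, 1 was called higher, Rrm2 (2.94%, against 0.392% of all genes), and all 34 differences were above 0, with a median of 0.58. Dividing cells make deoxynucleotides and copy their DNA in S phase, then attach chromosomes to a spindle and separate them in mitosis. The called genes include several of these steps, picked from the 51 after their values were seen. Among them was Rrm2, a subunit of the reductase that makes deoxynucleotides. Rrm2 had 586, 535 and 567 on the E17.5 arrays, against 310, 170 and 299 on the E15.5 arrays (log2 difference 1.11, SE 0.21, adjusted p = 0.014). The E17.5 arrays lay close together and did not overlap with those of E15.5. With E17.5 replicate 2 as the only array of its age the log2 difference of Rrm2 was 1.04 (adjusted p = 0.042).

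Cdkn3, a phosphatase that acts on cyclin-dependent kinases, had 323, 236 and 376 on the E17.5 arrays, against 188, 85.5 and 144 on the E15.5 arrays (adjusted p = 0.02). Ndc80, which holds microtubules at the kinetochore, had 608, 635 and 573 on the E17.5 arrays, against 367, 156 and 353 on the E15.5 arrays (adjusted p = 0.033). Pttg1, the securin that restrains chromosome separation, had 1420, 1881 and 1443 on the E17.5 arrays, against 1166, 435 and 706 on the E15.5 arrays (adjusted p = 0.029). None of these groups overlapped. Cenpw, a protein of the inner kinetochore, had 254, 194 and 225 on the E17.5 arrays, against 138, 106 and 65.8 on the E15.5 arrays, and Pbk, a mitotic kinase, was the other gene called. Ccnd1, the cyclin D1 that carries cells from growth signals into S phase, had 2487, 2514 and 1688 on the E17.5 arrays, against 1041, 650 and 428 on the E15.5 arrays (log2 difference 1.70, SE 0.39, adjusted p = 0.033). On E17.5 replicate 2, Ccnd1 was as high as on replicate 1.

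The cell cycle list holds Rrm2 but none of the other called genes of division. Of its 34 genes, 27 were higher at an unadjusted p under 0.05 (5.41% of all genes were). In 16 all E17.5 arrays lay above all E15.5 arrays (5.23% of all genes). Mcm6, a part of the replicative helicase, Tyms, which makes thymidylate, and Aurkb, a mitotic kinase, had adjusted p of 0.042, 0.037 and 0.049 but log2 differences under 1 (0.96, 0.68 and 0.81). The list's median log2 intensity was 9.27, 8.77 and 9.29 on the E17.5 arrays, against 8.83, 8.24 and 8.42 on the E15.5 arrays. E17.5 replicate 2 thus lay just under E15.5 replicate 1. The list's median difference was 0.78 without E15.5 replicate 1, 0.81 without E17.5 replicate 2 and 0.37 with replicate 2 as the only E17.5 array, where 28 of 34 differences were above 0.

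The calls of single division genes depended on single arrays of both ages. Rrm2 had adjusted p = 0.12 without E15.5 replicate 2, 0.056 without E15.5 replicate 3 and 0.051 without E17.5 replicate 3. Ccnd1, Pttg1, Ndc80 and Pbk were called in only 1 of the 6 fits with an array left out, the fit without E15.5 replicate 1. Cdkn3 and Cenpw were called in 2 of them, and Cdkn3 had adjusted p = 0.18 without E15.5 replicate 2 and 0.10 without E15.5 replicate 3.

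The promoters of 3 called division genes hold the sequence CCAAT, the letters that the factor NF-Y binds and that are common in promoters of mitotic genes. They are shown from RefSeq's GRCm38.p6, from 250 bases before the transcript start to 50 after, with CCAAT on the printed strand, or ATTGG where it lies on the other strand, in capitals. Rrm2 lies at chr12:24708004-24708303 on the plus strand, Cdkn3 at chr14:46760291-46760590 on the plus strand and Cenpw at chr10:30200491-30200790 on the minus strand.
Rrm2: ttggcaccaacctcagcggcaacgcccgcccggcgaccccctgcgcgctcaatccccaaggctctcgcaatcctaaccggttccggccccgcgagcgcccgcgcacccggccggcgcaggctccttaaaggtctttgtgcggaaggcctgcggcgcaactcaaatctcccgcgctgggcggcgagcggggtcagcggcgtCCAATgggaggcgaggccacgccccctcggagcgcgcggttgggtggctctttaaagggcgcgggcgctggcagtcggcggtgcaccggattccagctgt
Cdkn3: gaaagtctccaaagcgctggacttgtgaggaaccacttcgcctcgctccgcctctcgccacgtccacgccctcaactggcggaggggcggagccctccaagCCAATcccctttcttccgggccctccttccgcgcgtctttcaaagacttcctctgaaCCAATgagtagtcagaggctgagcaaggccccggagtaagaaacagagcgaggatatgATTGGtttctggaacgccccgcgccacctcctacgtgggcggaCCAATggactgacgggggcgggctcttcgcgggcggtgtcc
Cenpw: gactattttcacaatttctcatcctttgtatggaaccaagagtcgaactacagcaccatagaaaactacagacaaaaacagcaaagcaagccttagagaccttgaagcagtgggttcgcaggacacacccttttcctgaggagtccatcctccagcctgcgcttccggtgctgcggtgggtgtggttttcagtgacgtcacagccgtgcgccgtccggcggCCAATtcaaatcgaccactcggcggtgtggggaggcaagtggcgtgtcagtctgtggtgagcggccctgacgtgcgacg
Searched on both strands, CCAAT was present in 3 of the 5 genes with an entry among Rrm2, Cdkn3, Ndc80, Pttg1, Cenpw and Pbk, in 21 of the 28 cell cycle list genes with an entry (75.0%) and in 37.9% of all 27025 promoters. Cdkn3 holds 4 matches, and Rrm2 and Cenpw hold 1 each. The letters TTTGAA, the core of the cell cycle homology region, were present in 42.9% of the cell cycle list promoters and in 18.1% of all.

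Of 6 tested pigment cell genes 1 was called higher (0.392% of all genes were). At an unadjusted p under 0.05, 4 were higher (5.41% of all genes were) and 1 was lower (9.59% of all genes were). Tyrp1, an enzyme of melanin synthesis, had 667, 937 and 1397 on the E17.5 arrays, against 653, 160 and 97.1 on the E15.5 arrays (log2 difference 2.04, SE 0.47, adjusted p = 0.037). The groups did not overlap, but E15.5 replicate 1 lay just under E17.5 replicate 1. Dct, which acts beside it in the melanosome, had 1666, 2530 and 3666 on the E17.5 arrays, against 1809, 432 and 91.7 on the E15.5 arrays, and was not called (log2 difference 2.49, adjusted p = 0.068). Mlana and Tyr had log2 differences of 1.84 and 1.54 and adjusted p of 0.058 and 0.083. Mitf, a transcription factor of pigment cells, had a difference of 0.09, and Rab38, which sorts melanosome enzymes, had 609, 330 and 640 on the E17.5 arrays, against 665, 870 and 826 on the E15.5 arrays (log2 difference -0.61, adjusted p = 0.18), the opposite order. The list's median difference was 1.69, and 0.24 with no filter on dim genes. The 6 pigment genes summed to 4949, 6057 and 8970 on the E17.5 arrays, against 5123, 2131 and 1497 on the E15.5 arrays, so E15.5 replicate 1 read like the E17.5 arrays here too. Without E15.5 replicate 3 Tyrp1 had adjusted p = 0.34, and without E15.5 replicate 2 it had 0.22.

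Of 8 tested genes of retina and neurons 0 were called, and 3 were higher at an unadjusted p under 0.05 (5.41% of all genes were). Differences below 0 were found in 2. Otx2, a factor of retinal pigment epithelium and photoreceptors, had 1513, 813 and 925 on the E17.5 arrays, against 588, 90.8 and 58.0 on the E15.5 arrays (log2 difference 2.66, adjusted p = 0.058). Tubb3, the tubulin of neurons, had 2863, 1876 and 640 on the E17.5 arrays, against 705, 204 and 129 on the E15.5 arrays (log2 difference 2.43, adjusted p = 0.054). The photoreceptor genes Crx and Rcvrn had differences of 0.14 and -0.21 (adjusted p = 0.93 and 0.91). The retina list summed to 6309, 4048 and 2511 on the E17.5 arrays, against 2356, 1167 and 819 on the E15.5 arrays. The 20 lens genes had a median difference of 0.00 with 0 called and 0 at an unadjusted p under 0.05. Whether tissue of the eye outside the cornea contributed to these genes was not tested.

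Among 7 tested smooth muscle and pericyte genes 1 was called higher (0.392% of all genes were). Acta2, smooth muscle actin, had 2377, 1008 and 2316 on the E17.5 arrays, against 771, 173 and 319 on the E15.5 arrays (log2 difference 2.28, SE 0.42, adjusted p = 0.013). Replicate 2 of E17.5 was the lowest of its group and still above every E15.5 array. Acta2 lost its call when either muscle-rich E17.5 array was left out (adjusted p = 0.055 and 0.06), and without E15.5 replicate 2 or 3 (0.12 and 0.093). With the skeletal muscle list as a covariate in limma's fit, chosen after seeing the data, its log2 difference was 1.22 (adjusted p = 0.17). The 7 genes summed to 7242, 2814 and 9323 on the E17.5 arrays, against 2713, 1549 and 1681 on the E15.5 arrays. Of 9 vessel endothelium genes 0 were called and 4 were higher at an unadjusted p under 0.05 (5.41% of all genes were). Of 5 blood genes and 13 macrophage and leukocyte genes 0 were called, with 1 blood gene higher and 2 leukocyte genes lower at an unadjusted p under 0.05. Of 9 nerve and Schwann cell genes, 4 cartilage and bone genes and 6 genes of goblet cells and glands 0 were called, with 2 nerve genes higher and 1 cartilage gene lower at an unadjusted p under 0.05.

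The other genes higher at E17.5 with all arrays above those of E15.5 were of mixed function. Ckb, brain-type creatine kinase, had 3684, 3995 and 1693 on the E17.5 arrays, against 943, 481 and 530 on the E15.5 arrays (log2 difference 2.20, SE 0.46, adjusted p = 0.02). Gpm6a, a membrane glycoprotein of neurons, had 1358, 831 and 1189 on the E17.5 arrays, against 562, 159 and 66.2 on the E15.5 arrays. Itgbl1, an integrin-like matrix protein, had 517, 537 and 871 on the E17.5 arrays, against 473, 101 and 152 on the E15.5 arrays. E15.5 replicate 1 was the highest of its age for both genes. Slc6a15, a carrier of neutral amino acids, had 595, 814 and 1563 on the E17.5 arrays, against 581, 252 and 158 on the E15.5 arrays. Tfrc, the transferrin receptor through which dividing cells take up iron, had 558, 451 and 440 on the E17.5 arrays, against 243, 190 and 181 on the E15.5 arrays (log2 difference 1.18, adjusted p = 0.021). The long noncoding RNA Dubr had 475, 351 and 510 on the E17.5 arrays, against 171, 147 and 248 on the E15.5 arrays. In Tfrc and Dubr all E15.5 arrays were low.

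Signalling genes of this set included Socs2, an inhibitor of growth hormone signalling, which had 575, 538 and 723 on the E17.5 arrays, against 262, 220 and 367 on the E15.5 arrays (log2 difference 1.09, adjusted p = 0.019). Lifr, the receptor of leukaemia inhibitory factor, had 240, 197 and 278 on the E17.5 arrays, against 133, 98.5 and 98.4 on the E15.5 arrays. Ramp3, a partner of the calcitonin receptor family, had 258, 279 and 537 on the E17.5 arrays, against 189, 152 and 129 on the E15.5 arrays. None of the 3 overlapped between the ages. Fzd4, a Wnt and norrin receptor, and Eya4, a transcriptional coactivator, were also called, and in both E17.5 replicate 2 fell within the E15.5 range. Of these genes Socs2 was called in 4 of the 6 fits with an array left out, Ckb, Slc6a15, Dubr and Ramp3 in 3, and Gpm6a, Itgbl1, Tfrc, Lifr, Fzd4 and Eya4 in 2. Socs2 had adjusted p = 0.14 without E15.5 replicate 2, and Ckb had 0.15 without E15.5 replicate 2 or 3.

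The 23 genes lower at E17.5 included several of surface epithelium, picked from the 23 after their values were seen. Epcam, an adhesion protein of epithelial cells, had 490, 354 and 663 on the E17.5 arrays, against 1362, 1307 and 1617 on the E15.5 arrays (log2 difference -1.52, SE 0.28, adjusted p = 0.011). Every E17.5 array was below every E15.5 array. The difference was -1.30 without E17.5 replicate 2 and -1.96 with replicate 2 as the only E17.5 array, and it was called in both. The second of these fits has 1 array of E17.5, the one with 45 very low genes, and takes its spread from the other ages. Epcam lost its call without E15.5 replicate 2 (adjusted p = 0.073) or replicate 3 (0.093).

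Csta1, Serpinb5, Capns2 and Lypd2 were also called lower. Csta1, a cystatin that inhibits cysteine proteases, had 378, 166 and 264 on the E17.5 arrays, against 508, 899 and 751 on the E15.5 arrays (log2 difference -1.40, adjusted p = 0.02). Serpinb5, the epithelial serpin maspin, had 548, 287 and 521 on the E17.5 arrays, against 645, 1249 and 1315 on the E15.5 arrays (log2 difference -1.20, adjusted p = 0.042). Capns2, a small subunit of calpain proteases, had 361, 134 and 286 on the E17.5 arrays, against 581, 735 and 1217 on the E15.5 arrays (log2 difference -1.67, adjusted p = 0.02). In these 3 genes E17.5 replicate 2 was the lowest array and E15.5 replicate 1 the lowest of its age, and the groups did not overlap. Lypd2, a membrane protein of the Ly6 family, had 879, 1421 and 545 on the E17.5 arrays, against 1399, 2461 and 2859 on the E15.5 arrays (log2 difference -1.27, adjusted p = 0.02). Its groups overlapped through E17.5 replicate 2. Serpinb5 was called in only 1 of the 6 fits with an array left out and Csta1, Capns2 and Lypd2 in 2. Without E15.5 replicate 2 the adjusted p was 0.26 for Serpinb5, 0.16 for Csta1, 0.11 for Capns2 and 0.13 for Lypd2.

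A chloride channel, 2 receptors and an adhesion protein were also among the genes called lower. Cftr, the channel, had 88.3, 91.0 and 90.4 on the E17.5 arrays, against 192, 319 and 300 on the E15.5 arrays (log2 difference -1.40, SE 0.25, adjusted p = 0.011). The 3 E17.5 values were nearly equal, and all lay below the lowest E15.5 value. Npy2r, a receptor of neuropeptide Y, had 90.3, 81.9 and 139 on the E17.5 arrays, against 159, 415 and 592 on the E15.5 arrays (log2 difference -1.61, adjusted p = 0.011). Cntn4, a neuronal adhesion protein, had 192, 255 and 121 on the E17.5 arrays, against 428, 539 and 570 on the E15.5 arrays (adjusted p = 0.026). Lrp1b, a large lipoprotein receptor, had 649, 871 and 531 on the E17.5 arrays, against 1337, 1398 and 1712 on the E15.5 arrays (log2 difference -1.12, adjusted p = 0.01). None of these groups overlapped. Cftr and Npy2r were called in 4 of the 6 fits with an array left out, Lrp1b in 3 and Cntn4 in 2, and without E15.5 replicate 2 Cftr and Npy2r had adjusted p = 0.10.

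Among intracellular regulators, Akap5, which anchors protein kinase A at membranes, had the most negative difference of the called genes. It had 728, 544 and 753 on the E17.5 arrays, against 3129, 911 and 3843 on the E15.5 arrays (log2 difference -1.71, SE 0.30, adjusted p = 0.01). E15.5 replicate 2 was low for its age but still above every E17.5 array. Akap5 had adjusted p = 0.093 without E15.5 replicate 3. Polr3g, a subunit of RNA polymerase III, had 416, 134 and 201 on the E17.5 arrays, against 475, 938 and 696 on the E15.5 arrays (log2 difference -1.52, adjusted p = 0.01). Synpo2, an actin-binding protein, had 144, 127 and 145 on the E17.5 arrays, against 199, 468 and 522 on the E15.5 arrays (log2 difference -1.31, adjusted p = 0.01). In both genes E15.5 replicate 1 lay nearest to the E17.5 arrays, and both had adjusted p = 0.10 without E15.5 replicate 2.

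The remaining called genes included regulators of transcription. Irx3, an Iroquois homeobox factor, had 385, 400 and 361 on the E17.5 arrays, against 695, 578 and 1332 on the E15.5 arrays. Bcl6, a repressor of transcription, had 349, 289 and 339 on the E17.5 arrays, against 484, 825 and 944 on the E15.5 arrays. The long noncoding RNA Crnde had 503, 237 and 279 on the E17.5 arrays, against 648, 684 and 1132 on the E15.5 arrays. All 3 were lower on every E17.5 array. Hspa1a, an inducible heat shock protein, had 1292, 632 and 1237 on the E17.5 arrays, against 1544, 2506 and 2551 on the E15.5 arrays (log2 difference -1.08, adjusted p = 0.02). Mreg, Rhov, Aff2, Rgs6, Cuedc1, Tmem102 and 1 transcript without a gene name made up the rest, and only Rhov overlapped between the ages. Bcl6 was called in 4 of the 6 fits with an array left out, Hspa1a in 3, and Irx3 and Crnde in 2. Without E15.5 replicate 2 Hspa1a had adjusted p = 0.16.

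Most lists of epithelial genes leaned lower at E17.5 in count, mostly without calls. Of all genes, 62.8% had a difference below 0, so a majority below 0 is the rule here. Genes of junctions and barrier hold the cells of the epithelium together. Of 20 tested, 1 was called lower (Epcam, against 0.177% of all genes), and 12 were lower at an unadjusted p under 0.05 (9.59% of all genes were). All 20 differences were below 0, with a median of -0.63. Dsp, the desmosomal plakin, had 2495, 3438 and 2117 on the E17.5 arrays, against 3503, 5546 and 5893 on the E15.5 arrays (log2 difference -0.88, adjusted p = 0.22). Perp, a desmosomal membrane protein, had 1379, 1625 and 1170 on the E17.5 arrays, against 1616, 3609 and 3701 on the E15.5 arrays (log2 difference -1.01, adjusted p = 0.10). E15.5 replicate 1 lay nearest to the E17.5 arrays for both. The list summed to 19907, 23088 and 19711 on the E17.5 arrays, against 25662, 39242 and 41893 on the E15.5 arrays. Its median difference was -0.83 without E15.5 replicate 1, -0.75 without E17.5 replicate 2 and -0.48 with replicate 2 as the only E17.5 array.

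Of 18 epithelial transcription factors 0 were called, 7 were lower at an unadjusted p under 0.05, and 16 differences were below 0 (median -0.55). Pax6, the master regulator of eye development, had 2453, 2315 and 1884 on the E17.5 arrays, against 2171, 3896 and 3769 on the E15.5 arrays (log2 difference -0.52, adjusted p = 0.32), and the groups overlapped through E15.5 replicate 1. Tfap2c, an AP-2 factor of surface ectoderm, had 376, 296 and 297 on the E17.5 arrays, against 395, 601 and 600 on the E15.5 arrays, with an adjusted p of 0.029 and a log2 difference of -0.68, under the size required for a call. Of 16 keratins 0 were called and 4 were lower at an unadjusted p under 0.05, with a median of -0.37. Krt12 had a log2 difference of -0.57 (adjusted p = 0.13), and Krt5, a keratin of basal cells, had -0.55 (adjusted p = 0.44). Krt15, another basal keratin, had 7997, 8480 and 7905 on the E17.5 arrays, against 7623, 9137 and 8448 on the E15.5 arrays, a difference of -0.04.

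The lists of corneal epithelial products (20 genes, median -0.38) and Ly6 family proteins (7 genes, median -0.61) held 1 gene called lower each (0.177% of all genes were). These were Serpinb5 and Lypd2. Of the 20 products 13 had a difference below 0, near the share over all genes, while Aldh1a1 had 0.99 (adjusted p = 0.074). In the Ly6 list 6 were below 0, and Ly6e had 0.95 (adjusted p = 0.11). Of 17 genes of basement membrane and hemidesmosome 0 were called and 3 were lower at an unadjusted p under 0.05. Lama3, a laminin chain that anchors epithelium, had 384, 331 and 371 on the E17.5 arrays, against 523, 963 and 964 on the E15.5 arrays (log2 difference -1.09, adjusted p = 0.074), with no overlap. Of 9 mucin and glycocalyx genes 0 were called, 0 had an unadjusted p under 0.05, and 6 had a difference below 0.

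The 12 tested genes of the skin and cornified envelope list had a median difference of -0.13 (-0.07 over all genes), and 3 were above 0. Both of its lowest genes differed by more than the keratins named above. Sbsn, a secreted protein of keratinising epithelium, had 556, 388 and 525 on the E17.5 arrays, against 656, 1051 and 1284 on the E15.5 arrays, with adjusted p = 0.015 and a log2 difference of -0.97 that stayed under the size for a call. Krtdap, a protein of differentiating keratinocytes, had 1765, 1351 and 1272 on the E17.5 arrays, against 3169, 3661 and 4187 on the E15.5 arrays (log2 difference -1.32, adjusted p = 0.064). Both were lower on every E17.5 array. Of the 12 genes of that list 0 were called, and 4 were lower at an unadjusted p under 0.05.

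Lists of stromal genes held 0 called genes. Of 11 fibrillar collagens 0 were called (median -0.16, 1 lower at an unadjusted p under 0.05), and of 12 fibril-associated and other collagens 0 were called (median -0.25, 11 below 0, with 0 at an unadjusted p under 0.05). Col1a1, the main chain of corneal fibrils, had 4917, 7265 and 5151 on the E17.5 arrays, against 5774, 6399 and 7568 on the E15.5 arrays (log2 difference -0.20, SE 0.39, adjusted p = 0.87). Col5a1, a chain that limits fibril width, had 740, 907 and 716 on the E17.5 arrays, against 928, 1077 and 901 on the E15.5 arrays (log2 difference -0.30, adjusted p = 0.35). Both groups overlapped. These spreads are wide, and a missed threshold does not show that the levels were equal.

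Of 12 small leucine-rich proteoglycans, which space collagen fibrils, 0 were called and 3 were higher at an unadjusted p under 0.05. Fmod, fibromodulin, had 1238, 1375 and 1567 on the E17.5 arrays, against 991, 449 and 537 on the E15.5 arrays (log2 difference 1.14, adjusted p = 0.27), with all E17.5 arrays above those of E15.5. Lum, lumican, had 5438, 4484 and 5372 on the E17.5 arrays, against 6482, 6662 and 8247 on the E15.5 arrays (log2 difference -0.48, adjusted p = 0.76), the opposite order. Kera had a log2 difference of -0.30 (adjusted p = 0.86). Lists of keratan sulfate and keratocyte products (11 genes), collagen processing (15), other matrix proteins (24), matrix proteases and inhibitors (14) and periocular mesenchyme regulators (11) held 0 called genes in limma's fit, with medians between -0.37 and 0.17. At an unadjusted p under 0.05 these 5 lists held 0 to 2 higher and 0 or 1 lower genes each. In 5 of the 11 periocular regulators all E17.5 arrays lay below all E15.5 arrays (10.9% of all genes did). Twist2, a mesenchymal factor, had 1554, 1861 and 1208 on the E17.5 arrays, against 2119, 2505 and 3105 on the E15.5 arrays (log2 difference -0.74, adjusted p = 0.47).

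In the matrix list, Mfap5, a microfibril protein, had 1556, 510 and 2916 on the E17.5 arrays, against 1802, 144 and 109 on the E15.5 arrays (log2 difference 2.02, adjusted p = 0.19), so E15.5 replicate 1 again read like E17.5 replicates 1 and 3. Of 8 corneal endothelium genes 0 were called, and 1 was higher at an unadjusted p under 0.05. Cdh2, N-cadherin, had 754, 698 and 444 on the E17.5 arrays, against 414, 153 and 121 on the E15.5 arrays (log2 difference 1.56, adjusted p = 0.07), and the groups did not overlap. Fabp7, a fatty acid carrier of glia, had 3310, 1949 and 1228 on the E17.5 arrays, against 862, 590 and 691 on the E15.5 arrays (log2 difference 1.48, adjusted p = 0.073), while Sox10, the factor of neural crest and Schwann cells, had a difference of -0.01.

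Lists of signalling and shared processes held 0 called genes for the Wnt (17 tested), TGF-beta and BMP (21), EGF and FGF (16), retinoic acid (10) and Notch (9) pathways and for axon guidance (16), the circadian clock (15), glucocorticoid response (9), immediate early genes (13), interferon response (10) and glycolysis and hypoxia (15). The medians of these 11 lists lay between -0.32 and 0.25. At an unadjusted p under 0.05 each list held 0 to 4 higher and 0 to 3 lower genes. Of their genes, 3 had an adjusted p under 0.05 with a smaller difference. Epha3, an ephrin receptor of growing axons, had 269, 204 and 297 on the E17.5 arrays, against 165, 125 and 91.0 on the E15.5 arrays (log2 difference 0.95, adjusted p = 0.02). Spry2, a feedback inhibitor of FGF and EGF receptors, had 434, 460 and 502 on the E17.5 arrays, against 338, 287 and 249 on the E15.5 arrays (log2 difference 0.65, adjusted p = 0.042). Hlf, a clock output factor, had 945, 999 and 793 on the E17.5 arrays, against 1185, 1870 and 1662 on the E15.5 arrays (log2 difference -0.76, adjusted p = 0.019). The groups overlapped in none of the 3.

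The 74 genes were also read at the neighbouring ages E14.5 and P3. The comparisons with P3 share arrays with that of E17.5 and E15.5, so the values are given side by side as a description. The genes were chosen for low or high values at E15.5, so a mean at E14.5 on the other side of E15.5 is largely fixed by that choice and nothing is read from its counts. They were 42 of the 51 higher genes with E14.5 above E15.5 (49.7% of all genes) and 23 of the 23 lower genes with E14.5 below it (50.3% of all genes). Rrm2 averaged 1365 at E14.5, 260 at E15.5, 563 at E17.5 and 560 at P3. Cdkn3 averaged 674 at E14.5, 139 at E15.5, 312 at E17.5 and 431 at P3. For both genes E15.5 was the lowest of the 4 ages, which largely follows from their choice for low E15.5 values.

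Csta1 averaged 13.7 at E14.5, 719 at E15.5, 269 at E17.5 and 343 at P3, and Serpinb5 averaged 29.1, 1070, 452 and 501 at the same ages. Lypd2 averaged 156 at E14.5, 2240 at E15.5, 948 at E17.5 and 378 at P3. Krt12 averaged 55.5 at E14.5, 7494 at E15.5, 5071 at E17.5 and 2120 at P3. Epcam averaged 1147 at E14.5, 1429 at E15.5, 502 at E17.5 and 657 at P3. E15.5 was the highest of the 4 ages for each of these epithelial genes. For all but Krt12, which was not called, this order largely follows from their choice for high E15.5 values, and nothing is read from it. Epcam, unlike the other 4, was already bright at E14.5. Of the 51 higher genes, 19 were also called higher at P3 than at E15.5 (1.46% of all genes were), and 25 were called lower at P3 than at E17.5 (1.11% of all genes were). Of the 23 lower genes, 16 were also called lower at P3 than at E15.5 (1.16% of all genes were). The genes were chosen on the same E15.5 and E17.5 arrays, so that choice raises these P3 counts and nothing is read from them. Tnnt1 averaged 472 at E14.5, 466 at E15.5, 19568 at E17.5 and 597 at P3. Its high level was found on E17.5 replicates 1 and 3 alone among the arrays of the 4 ages, and replicate 2 read 529.

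**Figure D4:**
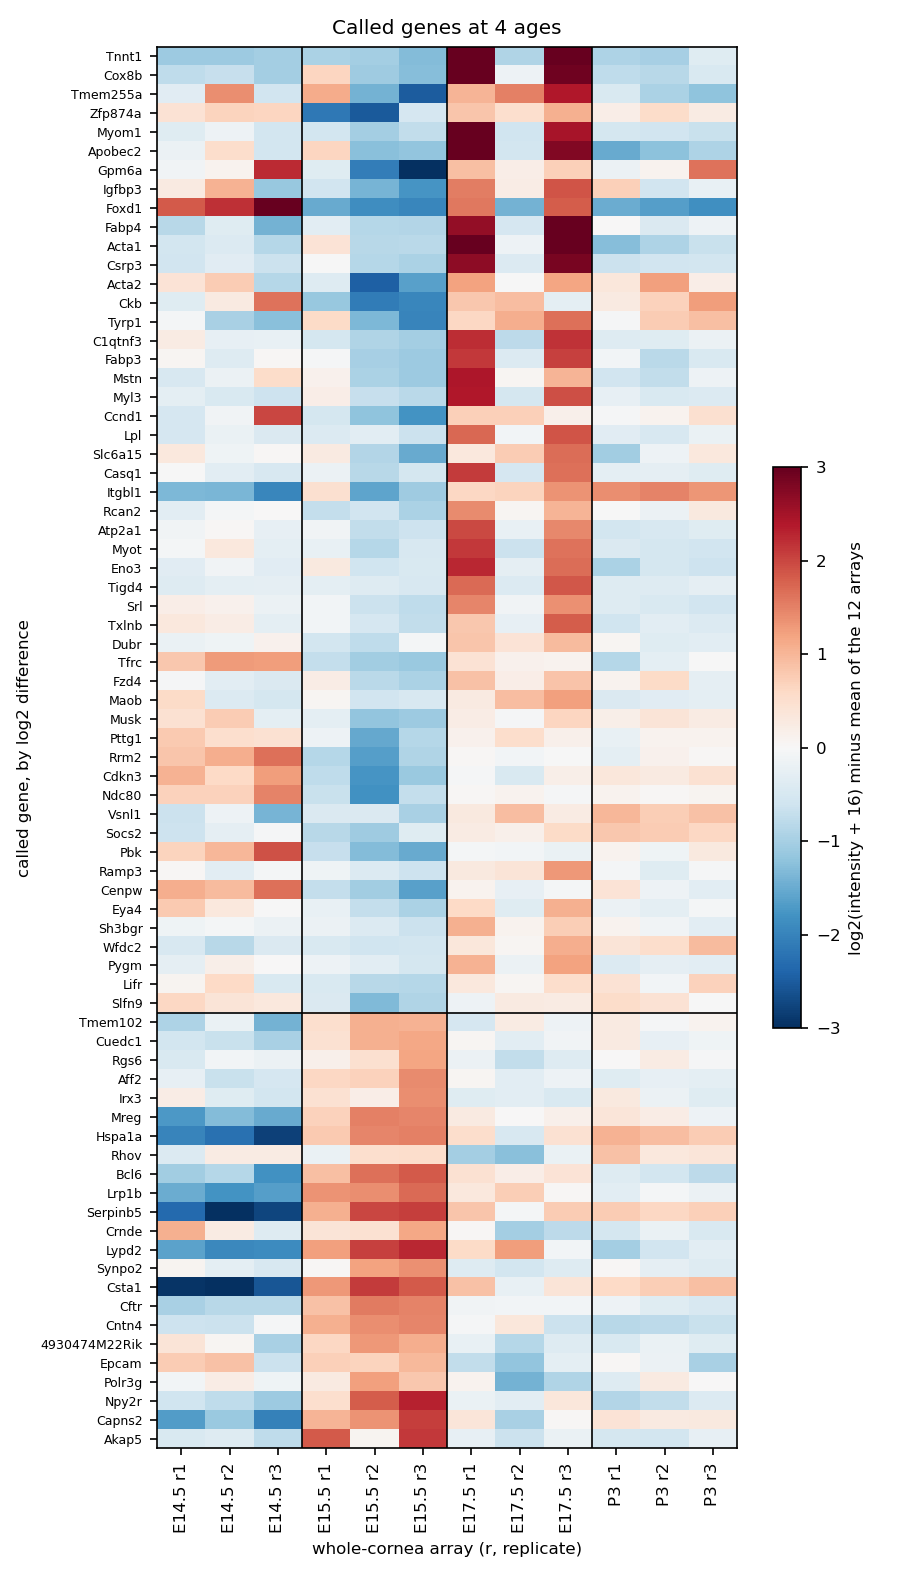
Log2(intensity + 16) minus the mean of 12 arrays (colour, log2 units) for the 74 called genes (rows, by log2 difference, with the 51 higher above the line and the 23 lower below it) on the whole-cornea arrays of E14.5, E15.5, E17.5 and P3 (columns, in order of age). Tnnt1, Acta1 and Csrp3 are dark red on E17.5 replicates 1 and 3, while Musk is not brightest there.

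**Figure D5:**
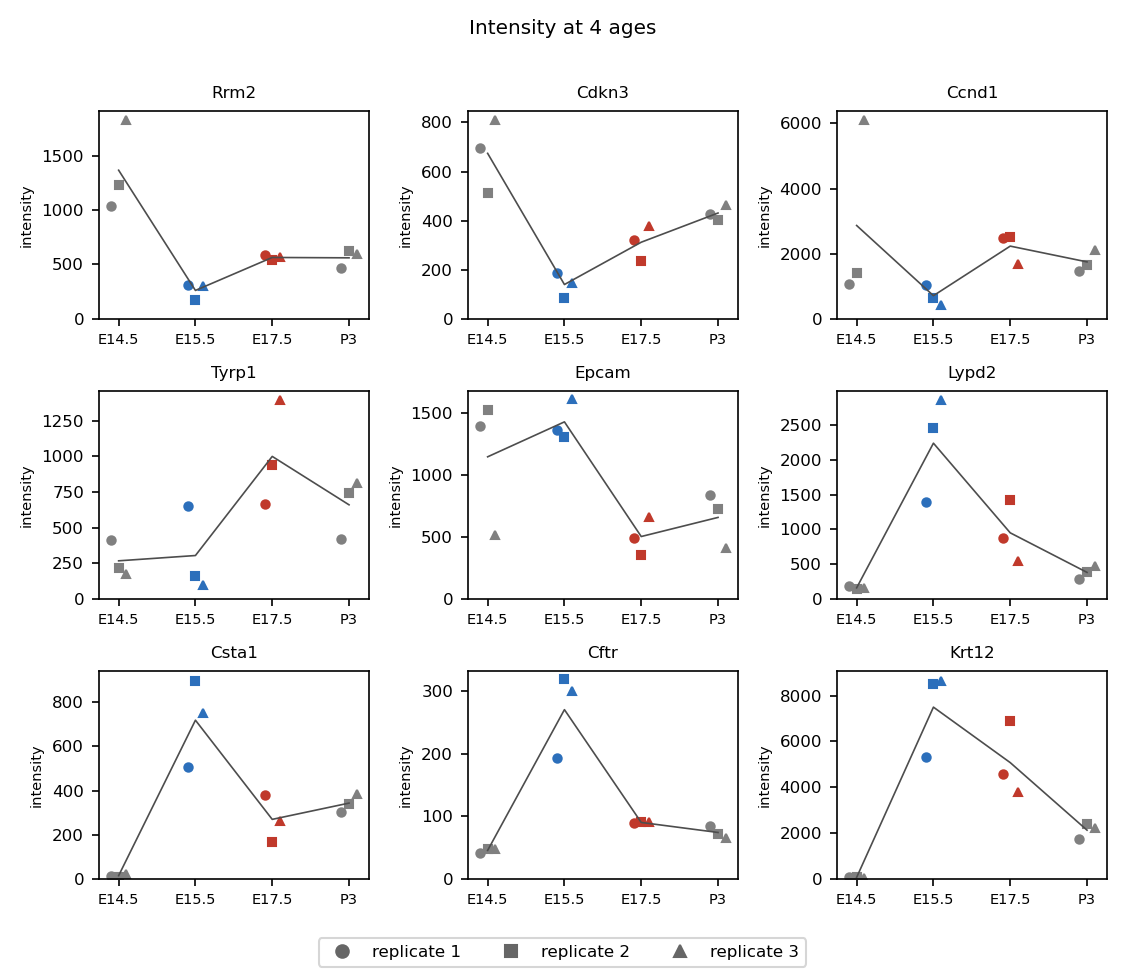
Intensity (y axis, linear from 0) of 9 genes on the 3 arrays of each of 4 ages (x axis), with a line through the age means. Rrm2 and Cdkn3 are lowest at E15.5 (means of 260 and 139), and Lypd2, Csta1, Cftr and Krt12 are highest there (means of 2240, 719, 270 and 7494).

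The isolated layers, 1 array of epithelium at P28 and 1 of stroma at P7, were used to describe the called genes, with no test. Of the 51 genes higher at E17.5, 4 were at least 4-fold brighter in stroma (0.869% of all genes were) and 0 in epithelium (0.515% of all genes were). The 4 were Acta1, with 192 in epithelium and 1708 in stroma, Acta2, with 219 and 1332, Cox8b, with 128 and 822, and Gpm6a, with 232 and 1795. Of the 23 lower genes, 1 was at least 4-fold brighter in epithelium and 0 in stroma. It was Lypd2, with 11267 in epithelium and 659 in stroma. Epcam, Capns2, Csta1 and Serpinb5 had log2 ratios of epithelium over stroma of 0.25, 0.52, 0.83 and 0.93, all under 2-fold. At a 2-fold ratio, 10 of the 51 higher genes were brighter in stroma (3.13% of all genes were) and 3 in epithelium (3.58% of all genes were), while 3 of the 23 lower genes were brighter in epithelium and 0 in stroma. Some muscle genes were brighter in stroma, such as Acta1, Cox8b, Atp2a1 (log2 ratio of epithelium over stroma -1.07) and Myot (-1.03). Csrp3 had -0.17 and Myl3 had 0.53. Whether the stroma array carried muscle RNA was not tested. The layers also differ in age and in how they were isolated, so these ratios describe those 2 arrays and do not place a gene in corneal stroma.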

How the data were processed

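Total RNA of whole corneas was amplified, labelled with biotin and hybridised to Affymetrix arrays, per the labels. The deposited values are linear probe-set intensities that the authors computed with PLIER in Affymetrix Expression Console 1.1, per the submitters' processing notes, and they were used without further scaling. The array medians were 188 to 241, and the genome build of the design is not given in the sources used here. Values were turned into log2(value + 16). Of 35557 probe sets, 21789 carry 1 gene symbol in GEO's platform annotation, 1621 several and 12147 none. Probe sets above their array's median on at least 2 of 32 whole-cornea arrays were kept, and the brightest stood for each of 12998 genes, chosen by its mean. A fold change on this scale understates changes of dim genes.

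limma 3.58.1 in R 4.3.3 fitted 1 mean for each of 12 ages to 32 arrays (lmFit, eBayes, 20 residual and 4.1 prior degrees of freedom), two-sided, with Benjamini-Hochberg adjustment over all 12998 genes. In simulated data with the same layout it recovered 88.2%, 95.5% and 98.5% of genes changed by log2 of 1.5, 2 and 3, with 1 false call. The simulated noise was independent and equally wide on every array, which these arrays are not. These rates therefore check the code and do not describe the calls reported here. Any called gene could be named, the 15 higher and 10 lower genes with the largest differences and no overlap with all 6 values, and any member of 43 gene lists. The genes and lists were chosen with earlier results of these data known. Lists are given by counts and medians beside all genes. Alternatives changed the filter, offset, scaling, probe-set summary, arrays fitted, moderation, array weights, replicate block, thresholds and arrays left out. Promoters come from RefSeq's table for GRCm38.p6, the first entry of each gene.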

Additional observations from a re-analysis of the deposited data

How the results depend on the processing

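The count of 74 called genes was 65 with no filter, 55 with the filter on the 6 arrays, 72 and 58 with offsets of 1 and 64, 107 with quantile normalization, 83 with median-centred arrays, 77 with probe sets averaged and 67 with trended robust moderation. It was 0 with the 6 arrays alone (1304 genes at an unadjusted p under 0.05, limma's smallest adjusted p = 0.39). With the 18 arrays of E14.5 to P14 it was also 0 (1561 genes, limma's smallest adjusted p = 0.1). Both fits took the spread from fewer arrays and left out the older ages. Whether the number of arrays or a wider spread at the young ages removed the calls was not tested. The count was 307 with array weights and 405 with E17.5 replicate 2 alone. It was 120 with no minimum difference, 146 at adjusted p under 0.10 and 32 at log2 of at least 1.5. With 1 array left out it ranged from 2 to 311. With the muscle list as a covariate, an alternative chosen after seeing the data, 187 genes were called, 9 higher and 178 lower, and 19 of the 74 remained. Without 5 arrays of other ages rich in lens or retina genes, also chosen later, it was 107. The 11 called muscle genes became 18 with quantile normalization, 15 with median centring, 0 with 6 or 18 arrays, 31 with array weights, 0 with E17.5 replicate 2 alone or with the muscle covariate, 20 at adjusted p under 0.10, 7 at log2 of at least 1.5, and 0 to 30 with 1 array left out. The median over the cell cycle list ran from 0.35 to 0.88 and that over the junction list from -0.83 to -0.48 in all these fits. The causes of these changes were not tested.

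Deviations of same-numbered arrays correlated at 0.18, 0.29 and -0.11. No differently numbered arrays were set beside them, so these values do not tell if the replicate numbers pair the samples. With the replicate number as a block, 60 genes were called, all among the 74, and 8 of them were muscle genes. The number of arrays and the spread between them limit the precision here, and dim genes are read close to background.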
